A study of Mus musculus with 4 samples.

Results

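The genes described here are 8 inflammatory chemokines (Cxcl9, Cxcl10, Cxcl16, Ccl2, Ccl3, Ccl4, Ccl5 and Ccl12) and the fractalkine pair, the chemokine Cx3cl1 and its receptor Cx3cr1. They were chosen by symbol, with earlier results of these data known, and all 10 are among the 55403 features of the deposited matrices. At least 1 unique molecular identifier (UMI, a counted RNA molecule) was found for 9 of the 10 in the nuclei kept, the exception being Cxcl9.

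Single-nucleus RNA-seq had been done on frozen, pooled mouse hippocampus, with 1 library of WT, 2 of PS19 and 1 of TG_PS19 mice. PS19 mice carry a human 1N4R tau transgene with the P301S change under the Prnp promoter, and TG_PS19 mice carry in addition a SORLA transgene at Rosa26 driven by a CMV/β-actin element, which is not limited to 1 cell type. The series title speaks of aged brain, but the labels give neither an age nor the number of animals in a pool. With 1 library of WT and 1 of TG_PS19, every p-value below takes its spread between libraries from the PS19 pair, and nothing states that the pair came from separate animals.

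Chemokines are small secreted proteins that steer leukocytes and microglia through G-protein-coupled receptors. Ccl2 and Ccl12 bind Ccr2, Cxcl9 and Cxcl10 bind Cxcr3, and Cxcl16 binds Cxcr6. In the brain Cx3cl1 is made mainly by neurons, is shed from the membrane by the proteases Adam10 and Adam17, and signals to Cx3cr1 on microglia.

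The 4 libraries held 4643 to 12762 barcodes and 20064025 to 48670533 UMIs, and 4467 to 11458 nuclei per library were kept. In each of the tested classes at least 5 of its markers were over 2-fold higher than in other nuclei in every library, dentate granule and CA1 neurons of the hippocampus included, and 12 classes with at least 50 nuclei in each library were tested. The microglial class held 597 nuclei in WT, 259 and 294 in PS19 and 419 in TG_PS19. It is made of a cluster high in Clec7a and other disease-associated genes, with 55, 216, 240 and 35 nuclei in WT, PS19 replicate 1, PS19 replicate 2 and TG_PS19, and a cluster low in them with 542, 43, 54 and 384 nuclei. Most of the class therefore lay in the first cluster in PS19 and in the second in WT and TG_PS19. By sex-linked RNA, 4548 TG_PS19 nuclei were called by Xist and 2169 by Y-linked genes, whereas at most 27 nuclei of any other library were called by Xist, so the TG_PS19 pool held both sexes and the other pools were nearly all male. Between 36 and 67 barcodes per library also occurred in another library.

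Levels are counts per 1000000 (CPM): a gene's UMIs were summed over a class within 1 library and scaled to that many UMIs. Intervals are exact 95% Poisson intervals or exact binomial ones, and cover counting error only. A pair of a member and a class was called when the adjusted p of edgeR's quasi-likelihood test, adjusted over all genes of the class by the Benjamini-Hochberg method, was at most 0.05. Of 120 possible pairs, 33 passed the filter on low counts and were tested. In 11 of the 12 classes the fit drew every gene's spread wholly to a trend over genes (an infinite prior). A gene's own difference between the PS19 libraries therefore hardly enters its p-value or its standard error (SE) there.

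In PS19 against WT, 7 of the 33 pairs were called, all higher in PS19, against 2.54% of all 144444 gene and class pairs (1.25% higher and 1.29% lower). In TG_PS19 against PS19, 10 pairs were called, 7 lower and 3 higher, against 4.14% of all pairs (1.46% lower and 2.68% higher). In TG_PS19 against WT, 1 pair was called, lower in TG_PS19, against 1.57% of all pairs (1.08% higher and 0.489% lower). The comparisons share libraries, so they are not independent of each other. A pair with few or no UMIs outside PS19 could pass the filter through PS19 alone, so these counts are a description. The pairs called lay in microglia, astrocytes and oligodendrocytes. With DESeq2 the counts were 2, 3 and 0 pairs, against 0.238%, 0.525% and 0.114% of all pairs, and DESeq2 gave no adjusted p for 6, 15 and 12 of the 33.

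Of the 10 members, 6 have an entry among the RefSeq promoters (GRCm38.p6, from 250 bases before to 50 after the gene's start). The promoters of Cxcl10, Ccl3 and Ccl12 are shown because these genes were called higher in PS19 and lower in TG_PS19, and that of Cxcl9 because it lies near Cxcl10 on the same chromosome but gave no UMI. The Cxcl10 promoter spans chr5:92348840-92349139, Cxcl9 chr5:92328030-92328329 and Ccl3 chr11:83649329-83649628, all on the minus strand, and Ccl12 chr11:82101595-82101894 on the plus strand. Both strands were searched for the interferon-stimulated response element (ISRE, GAAANNGAA), the κB motif (GGANTTNCC), the AP-1 motif (TGANTCA) and a TATA box (TATAAA), and capitals mark the matches, none of which overlap.
Cxcl10: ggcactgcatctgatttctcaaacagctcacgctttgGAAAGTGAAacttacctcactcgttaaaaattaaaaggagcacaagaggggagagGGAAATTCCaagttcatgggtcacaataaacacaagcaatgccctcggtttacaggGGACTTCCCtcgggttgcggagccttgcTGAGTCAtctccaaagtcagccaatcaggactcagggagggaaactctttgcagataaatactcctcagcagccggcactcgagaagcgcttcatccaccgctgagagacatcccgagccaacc
Cxcl9: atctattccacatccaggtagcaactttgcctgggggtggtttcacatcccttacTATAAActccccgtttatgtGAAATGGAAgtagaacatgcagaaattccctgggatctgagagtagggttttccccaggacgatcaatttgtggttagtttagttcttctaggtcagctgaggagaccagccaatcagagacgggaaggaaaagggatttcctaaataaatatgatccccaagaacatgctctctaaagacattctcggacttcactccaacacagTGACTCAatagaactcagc
Ccl3: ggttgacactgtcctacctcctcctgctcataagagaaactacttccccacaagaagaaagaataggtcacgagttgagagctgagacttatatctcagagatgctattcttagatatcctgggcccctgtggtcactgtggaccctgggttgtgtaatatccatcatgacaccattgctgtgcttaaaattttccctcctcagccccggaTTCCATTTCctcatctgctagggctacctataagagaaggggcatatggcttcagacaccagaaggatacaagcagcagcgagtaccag
Ccl12: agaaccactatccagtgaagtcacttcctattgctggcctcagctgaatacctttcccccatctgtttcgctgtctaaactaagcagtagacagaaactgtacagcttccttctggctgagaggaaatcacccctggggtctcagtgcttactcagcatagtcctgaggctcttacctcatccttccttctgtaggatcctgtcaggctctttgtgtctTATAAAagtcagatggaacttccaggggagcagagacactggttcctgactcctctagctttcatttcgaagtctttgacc
Cxcl10 had an ISRE match beginning 213 bases before the start, κB matches 158 bases (on the minus strand of the promoter) and 102 bases before it, and an AP-1 match 74 bases before it. Cxcl9 had a TATA box match 195 bases and an ISRE match 175 bases before the start, and an AP-1 match beginning 31 bases after it. Ccl3 had an ISRE match 39 bases before the start, on the minus strand of the promoter, and Ccl12 a TATA box match 31 bases before it. Among all 32851 promoters of the same length, 8.56% held an ISRE match and 3.95% a κB match. An AP-1 match was held by 7.81% and a TATA box match by 13.6%, and 110 promoters held both an ISRE and a κB match. The ISRE and κB forms were shortened after a first search with longer forms had been seen. The matches and shares are therefore a description, and a promoter without a match was not shown to lack a motif.

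In microglia the CC chemokines Ccl3 and Ccl4, which attract monocytes and T cells, were higher in both PS19 libraries than in WT and in TG_PS19. Ccl3 had 8 UMIs in 4 WT nuclei, 46 in 28 and 52 in 25 nuclei of the PS19 libraries, and 2 UMIs in 2 TG_PS19 nuclei. These counts are 7.95 CPM (3.43 to 15.7) in WT, 71.3 (52.2 to 95.1) and 62.7 (46.9 to 82.3) in the PS19 pair and 2.70 (0.327 to 9.74) in TG_PS19. Both PS19 libraries lay above the other groups with no overlap of the intervals. The log2 fold change of Ccl3 was 3.04 ± 0.43 (SE) in the PS19 pair against WT (edgeR, adjusted p = 3.3e-10), with a DESeq2 adjusted p of 0.0984. Against TG_PS19, with 2 UMIs, the pooled PS19 level was 24.7 times as high (counting interval 6.65 to 206), with an edgeR adjusted p of 1.99e-11.

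Ccl4 had 18 UMIs in 5 WT nuclei, 93 in 31 and 121 in 29 nuclei of the PS19 libraries, and 1 UMI in TG_PS19. The levels were 17.9 CPM (10.6 to 28.3) in WT, 144 (116 to 177) and 146 (121 to 174) in the PS19 pair, and 1.35 (0.0341 to 7.51) in TG_PS19. The PS19 libraries differed from each other by less than their counting error and did not overlap with WT or TG_PS19. The log2 fold change in PS19 against WT was 3.01 ± 0.33 (edgeR adjusted p = 2.46e-17), a call that DESeq2 also made (adjusted p = 0.00174). Relative to the single TG_PS19 UMI, Ccl4 in PS19 was 108 times as high (19.1 to 4273), called by edgeR (adjusted p = 2.71e-25) and by DESeq2 (0.00196). Ccl4 was also the member called in TG_PS19 against WT, with an edgeR adjusted p of 0.0422. That call was lost in 6 of 11 alternative analyses, among them DESeq2 (adjusted p = 1) and leaving out the nucleus with most UMIs of each member (0.549), since 10 of the 18 WT UMIs came from 1 nucleus.

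**Figure D1:**
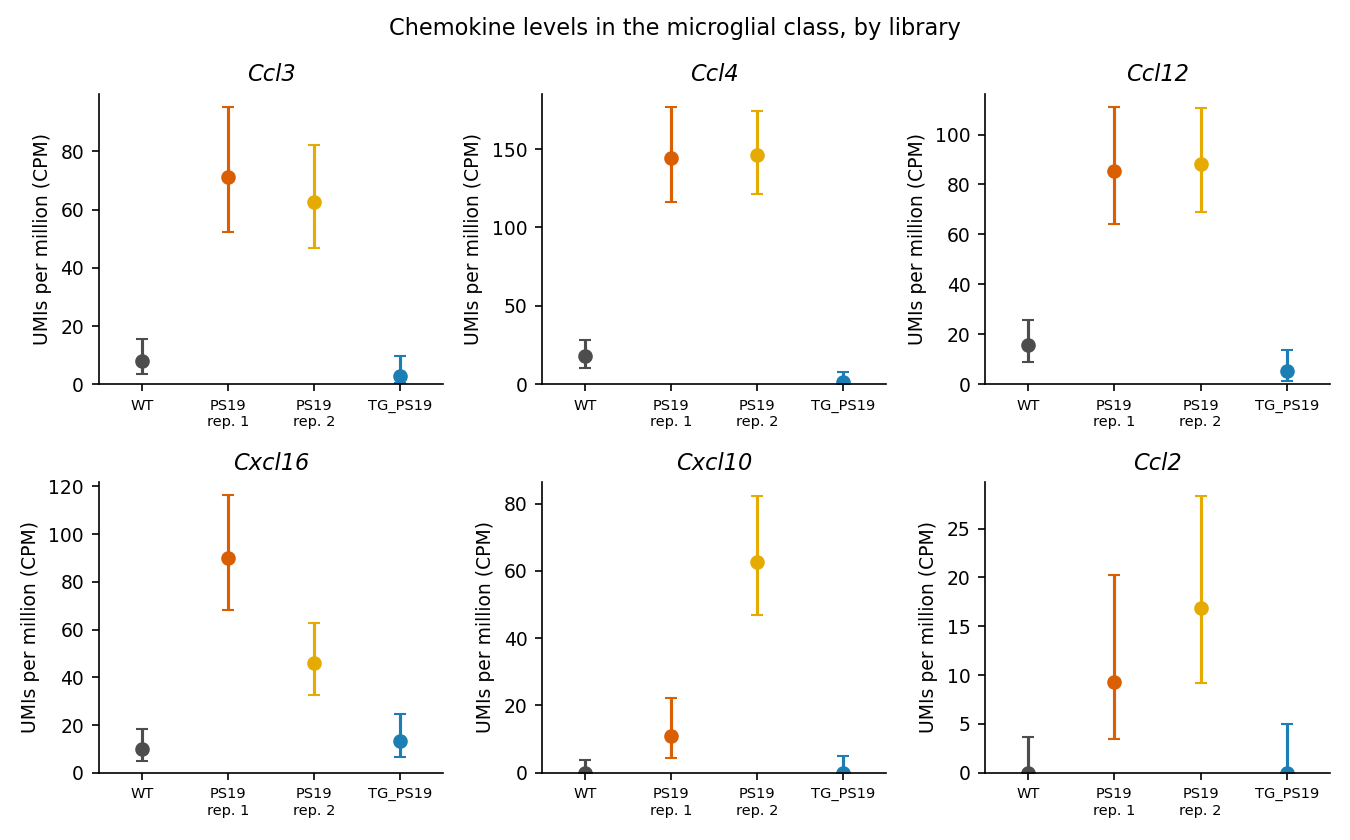
Levels of 6 chemokines in the microglial class, in CPM, 1 point per library with its exact 95% Poisson interval. Ccl3, Ccl4 and Ccl12 sit between 62.7 and 146 CPM in the 2 PS19 libraries and at or under 17.9 CPM in WT and TG_PS19, while Cxcl10 differs between the PS19 libraries (10.9 and 62.7 CPM).

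Ccl12, a ligand of the monocyte receptor Ccr2, followed the same order. It had 16 UMIs in 15 WT nuclei, 55 in 25 and 73 in 24 nuclei of the PS19 libraries and 4 in 4 TG_PS19 nuclei, or 15.9, 85.3, 88.1 and 5.39 CPM. The WT and TG_PS19 levels (intervals 9.09 to 25.8 and 1.47 to 13.8) were below both PS19 levels (64.2 to 111 and 69.0 to 111). The log2 fold change of Ccl12 was 2.43 ± 0.37 in PS19 against WT (edgeR adjusted p = 4e-09, DESeq2 0.129) and −3.89 ± 0.50 in TG_PS19 against PS19 (edgeR 2.17e-12, DESeq2 0.0105). In TG_PS19 against WT it was −1.45 ± 0.71 and was not called (edgeR adjusted p = 0.574). Ccl12 lies near Ccl2 on chromosome 11 and resembles it in sequence, so reads shared by the pair could have been split in a way that the files do not show.

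Cxcl16 is a transmembrane chemokine and scavenger receptor that is shed like fractalkine. In microglia it gave 10 UMIs in WT, 58 and 38 in PS19 and 10 in TG_PS19, in 10, 46, 30 and 9 nuclei. The levels were 9.94 CPM (4.77 to 18.3) in WT, 89.9 (68.3 to 116) and 45.9 (32.4 to 62.9) in the PS19 pair and 13.5 (6.47 to 24.8) in TG_PS19. The PS19 libraries differed from each other beyond counting error, and both exceeded the other groups. Its log2 fold change was 2.72 ± 0.41 in PS19 against WT (edgeR adjusted p = 6.49e-09, DESeq2 0.173) and −2.20 ± 0.42 in TG_PS19 against PS19 (edgeR 1.15e-05, DESeq2 0.405). Against the male-called TG_PS19 nuclei alone, the latter edgeR adjusted p was 0.210. Unlike Ccl3, Ccl4 and Cxcl10, its UMIs were spread thinly, with at most 4 in any microglial nucleus. Fibroblasts had Cxcl16 at 15.8 to 19.6 CPM in the 4 libraries, with no order by group beyond counting error.

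Cxcl10, an interferon-induced ligand of Cxcr3, was found in microglia of the PS19 libraries only as far as these depths show. There were 0 UMIs in 597 WT nuclei and 0 in 419 TG_PS19 nuclei, which allows levels of up to 2.98 and 4.04 CPM (3 counts). In PS19 there were 7 UMIs in 3 nuclei and 52 in 6 nuclei (10.9 and 62.7 CPM), of which 29 came from 1 nucleus of replicate 2. Set against 3 counts in the other library, the pooled PS19 level was 13.4 times that of WT and 9.90 times that of TG_PS19. For replicate 1 alone these ratios were 3.64 and 2.68. The ratios are not lower bounds, as they leave out the error of the PS19 level and treat UMIs of 1 nucleus as independent. By share of positive nuclei, both PS19 intervals (0.240 to 3.35% and 0.753 to 4.39%) overlapped with that of TG_PS19 (0 to 0.877%). The interval of replicate 1 also overlapped with WT (0 to 0.616%), and that of replicate 2 lay above WT. The edgeR adjusted p was 7.17e-09 against WT and 5.2e-07 between TG_PS19 and PS19, and 0.056 for the latter without the nucleus with most UMIs of each member. DESeq2 gave no adjusted p for either. Cxcl10 could pass the filter on low counts in microglia through PS19 alone, so these edgeR p-values add nothing to the counts.

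Ccl2, the main Ccr2 ligand, had 0 microglial UMIs in WT and in TG_PS19, and 6 UMIs in 5 nuclei and 14 in 6 nuclei in PS19 (9.30 and 16.9 CPM). Its pooled level in PS19 was 4.55 times that of WT with WT set to 3 counts, which is likewise not a lower bound. By share of positive nuclei, the PS19 intervals (0.630 to 4.45% and 0.753 to 4.39%) lay above WT (0 to 0.616%). They overlapped with TG_PS19 (0 to 0.877%). Ccl2 did not pass the test in microglia, with edgeR adjusted p of 0.0619 against WT and 0.116 between TG_PS19 and PS19.

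In the microglial class, 7 members were tested: 5 were called higher in PS19 against WT (background in microglia 4.39% higher), 5 lower and 1 higher in TG_PS19 against PS19 (4.32% lower, 4.55% higher), and 1 lower in TG_PS19 against WT (0.185% lower). The median log2 fold change of the 7 was 3.01 and −4.47 in the first 2 comparisons, beside 0.01 and −0.01 over all genes tested in microglia. Cxcl10 and Ccl2, with no microglial UMI outside PS19, could pass the filter on low counts through PS19 alone and could only come out higher there. The counts of calls and these medians therefore describe the 7 and support nothing further.

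In PS19 the microglial Ccl3, Ccl4 and Ccl12 UMIs lay mostly in the cluster high in disease-associated genes. That cluster held 44 of 46 and 51 of 52 Ccl3 UMIs of the PS19 libraries, 90 of 93 and 120 of 121 of their Ccl4 UMIs, and 50 of 55 and 69 of 73 of their Ccl12 UMIs. In WT it held 7 of 8 Ccl3 and 15 of 18 Ccl4 UMIs, but 3 of 16 Ccl12 UMIs, and in TG_PS19 0 of 4 Ccl12 UMIs. The clusters were formed on the expression of 2000 variable genes, so the chemokine levels in them are a description. Inside it, Ccl3 stood at 72.7 CPM (29.2 to 150) in WT, 79.3 (57.6 to 106) and 74.3 (55.3 to 97.7) in the PS19 pair, and 16.2 (0.411 to 90.3) in TG_PS19, with all intervals overlapping. Ccl4 stood at 156 CPM (87.2 to 257), 162 (130 to 199) and 175 (145 to 209), with 0 UMIs in the 35 TG_PS19 nuclei, which allows up to 48.6 CPM (3 counts). The WT values come from 3 nuclei each. Ccl12 in the cluster was at 31.2 CPM (6.43 to 91.1) in WT, 90.1 (66.9 to 119) and 100.5 (78.2 to 127) in the PS19 pair, and had 0 UMIs in TG_PS19, with the same limit. Both PS19 intervals of Ccl4 and of Ccl12 lay above the TG_PS19 limit, and the WT intervals of all 3 genes overlapped with PS19. These intervals treat UMIs of 1 nucleus as independent, and the richest nucleus held 17 and 21 Ccl4 UMIs in the PS19 libraries. By share of nuclei with Ccl4, the PS19 intervals (8.79 to 18.2% and 7.89 to 16.4%) overlapped with that of TG_PS19 (0 to 10.003%). The UMI limits from 35 nuclei therefore do not place TG_PS19 below PS19 in this cluster.

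**Figure D2:**
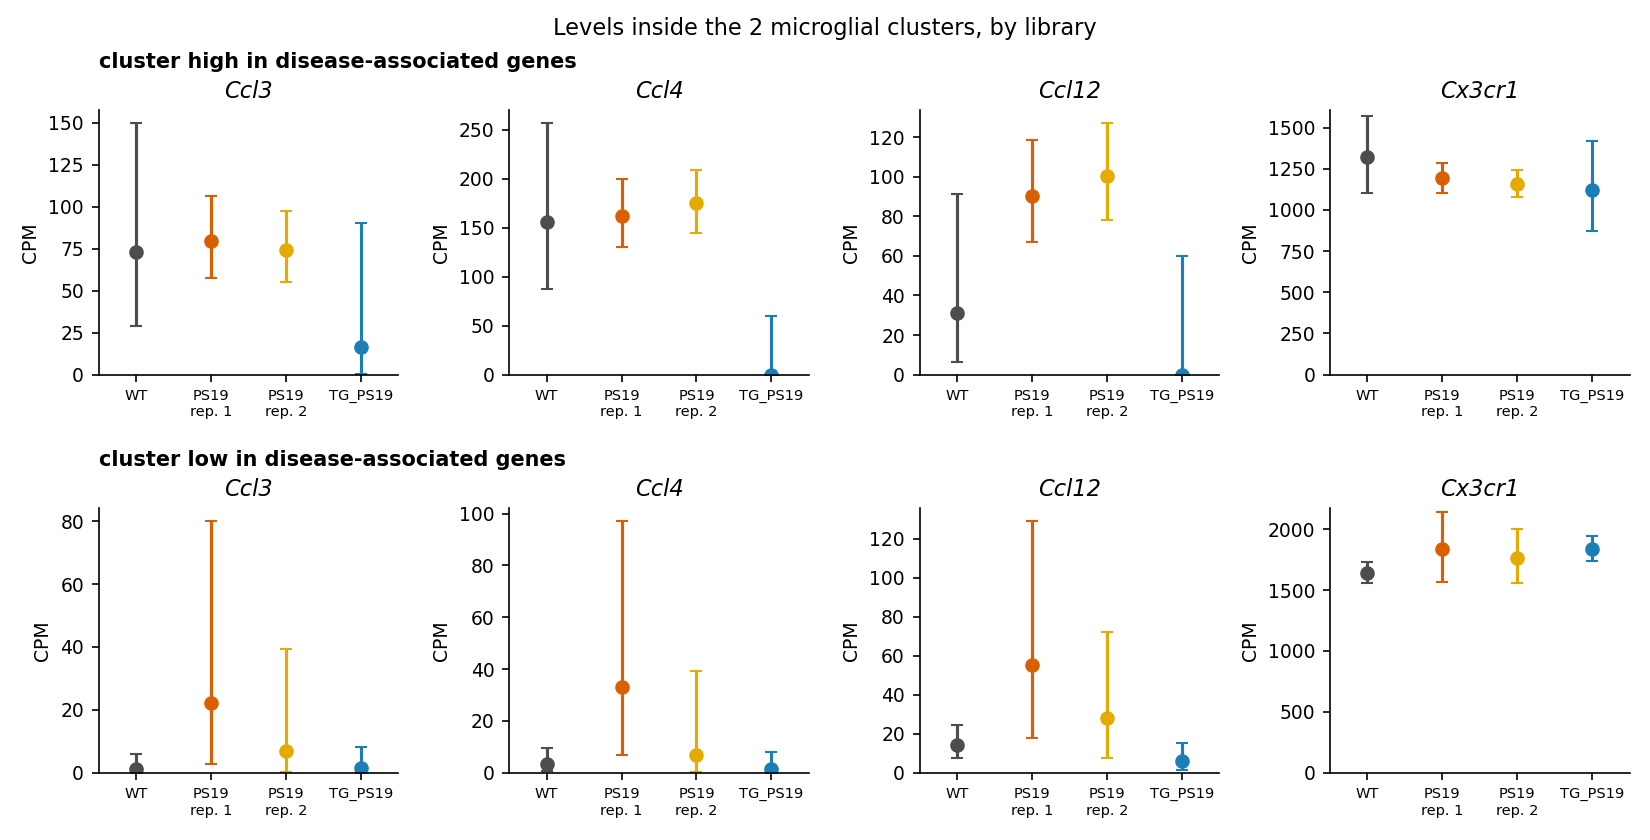
Levels of Ccl3, Ccl4, Ccl12 and Cx3cr1 in CPM inside the microglial cluster high in disease-associated genes (upper row) and the one low in them (lower row), with exact 95% Poisson intervals per library. WT and PS19 overlap for Ccl3 and Ccl4 in the upper row, where the WT points rest on 3 nuclei, and Cx3cr1 is lower in the upper row than in the lower row in every library.

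Microglial nuclei with one of these chemokines were a minority. Ccl4 was found in 0.838% of WT nuclei (0.272 to 1.94), 12.0% (8.28 to 16.6) and 9.86% (6.71 to 13.9) of PS19 nuclei and 0.239% (0.00604 to 1.32) of TG_PS19 nuclei. Thinned to 1000 UMIs per nucleus, the Ccl4 shares were 0.707%, 6.59%, 5.46% and 0.248%. Ccl3 and Ccl4 shared nuclei: Ccl4 was found in 9 of 28 and 12 of 25 Ccl3-positive PS19 nuclei (32.1% and 48.0%), against 9.52% and 6.32% of the rest. The positive nuclei were somewhat deeper, with median totals of 2562 and 2680 UMIs against 2196 and 2556. Ccl4 and Cxcl16 overlapped less clearly, with Cxcl16 in 22.6% and 24.1% of Ccl4-positive nuclei against 17.1% and 8.68% of the rest.

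Across the 12 classes and 4 libraries (48 points, log2 of CPM + 1, which share library and depth), the genes most like Ccl4 were Lilrb4a (Pearson r = 0.94), Clec7a (0.93) and Ccl12 (0.91), and those most like Ccl12 were Lilrb4a (0.94), Clec7a (0.91) and Ccl4 (0.91). For Ccl3 they were Ccl4 (0.89), Lilrb4a (0.88) and Gm26714 (0.86). Clec7a is a microglial pattern receptor of the disease-associated state and Lilrb4a an inhibitory myeloid receptor. These are descriptions across points that are not independent.

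Marker lists of other signals were summed over the same microglial nuclei. A list of 20 genes that respond to tissue dissociation summed to 624 CPM in WT, 696 and 658 in PS19 and 437 in TG_PS19 microglia, with 3, 3, 3 and 6 of the 20 at 0, among them Fosb, Hspa1a and Hspa1b in every library. A list of 10 markers of border macrophages and monocytes summed to 262, 381, 428 and 414 CPM, with Ly6c2 at 0 in 3 libraries and Lyve1 at 0 in WT and TG_PS19. Of 9 T cell markers, 6 or 7 were at 0, including Cd3e and Cd3g, and the sum was 4.65 to 16.9 CPM. The part of dissociation and of border macrophages in the chemokine results was not tested. The both-sex TG_PS19 pool cannot be told apart from the SORLA transgene. TG_PS19 microglia called by Xist had 0 Ccl3 and 1 Ccl4 UMIs in 239 nuclei, and those called by Y-linked genes 1 and 0 in 79 nuclei.

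In astrocytes Cxcl10 was higher in both PS19 libraries than in WT and in TG_PS19. It had 22 UMIs in 5 WT nuclei, 140 in 14 and 77 in 14 nuclei of the PS19 libraries and 3 in 3 TG_PS19 nuclei. The levels were 2.63 CPM (1.65 to 3.98) in WT, 58.0 (48.8 to 68.4) and 23.4 (18.4 to 29.2) in the PS19 pair, and 0.560 (0.116 to 1.64) in TG_PS19. PS19 replicate 1 was above replicate 2 beyond counting error, and both lay above WT and TG_PS19. The log2 fold change was 3.87 ± 0.31 in PS19 against WT (edgeR adjusted p = 6.83e-32, DESeq2 6.95e-07). Without PS19 replicate 1 it was 3.14 and without replicate 2 it was 4.42, a spread that the SE does not measure. Against the 3 UMIs of TG_PS19 the pooled PS19 level was 67.9 times as high (22.9 to 332), called by edgeR (adjusted p = 1.09e-33) and DESeq2 (7.42e-07). In TG_PS19 against WT the log2 fold change was −2.03 ± 0.75 (edgeR adjusted p = 0.160).

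The Cxcl10 UMIs came from few astrocytes. The 3 richest nuclei held 20 of 22 UMIs in WT, 91 of 140 in PS19 replicate 1 and 51 of 77 in replicate 2, and the richest had 11, 49 and 31. Without the richest nucleus the levels were 1.31, 37.8, 14.0 and 0.374 CPM, in the same order, and Cxcl10 was still called in both comparisons. Most lay in the astrocyte cluster led by Gfap, the intermediate filament of reactive and fibrous astrocytes, and Myoc: 20 of 22, 136 of 140 and 74 of 77 UMIs in WT and PS19. There Cxcl10 stood at 32.0 CPM (19.6 to 49.5) in WT and 194 and 86.5 in PS19. No UMI was found in its 102 TG_PS19 nuclei, which allows up to 9.79 CPM (3 counts). The WT level rests on 60% of the 5 positive WT astrocytes, and its interval treats UMIs of 1 nucleus as independent. That interval therefore does not place TG_PS19 below WT in this cluster. This cluster had 230 of 2760 astrocytes in WT, 171 of 613 and 172 of 691 in the PS19 pair and 102 of 1646 in TG_PS19.

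Cxcl10-positive astrocytes also held more RNA of the interferon regulator Irf7. In PS19 the 14 positive nuclei of each library had 6 and 5 Irf7 UMIs (77.5 and 57.5 CPM), and the 599 and 677 other astrocytes had 0 and 4 (0 and 1.25 CPM). The genes whose class pattern was most like that of Cxcl10 were C3 (r = 0.70), Cd44 (0.68) and Cst7 (0.68), over the same 48 points.

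**Figure D3:**
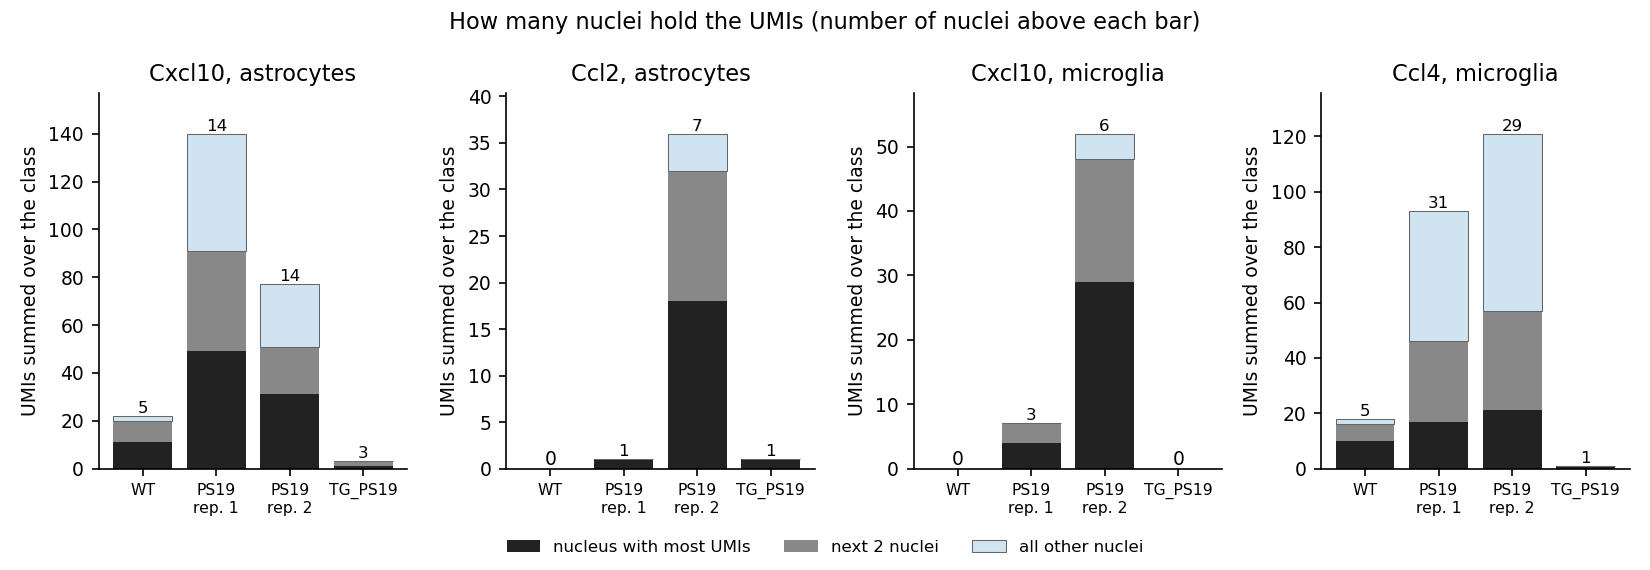
UMIs of Cxcl10 and Ccl2 in astrocytes and of Cxcl10 and Ccl4 in microglia, summed per library and split into the nucleus with most UMIs, the next 2 and all others, with the number of positive nuclei above each bar. In PS19 replicate 2, 1 astrocyte holds 18 of 36 Ccl2 UMIs and 1 microglial nucleus 29 of 52 Cxcl10 UMIs, whereas Ccl4 is spread over 31 and 29 PS19 nuclei.

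Ccl2 in astrocytes differed within the PS19 pair by more than between some groups. It had 0 UMIs in WT, 1 and 36 in PS19 and 1 in TG_PS19, or 0, 0.414, 10.9 and 0.187 CPM, so replicate 1 lay beside WT and TG_PS19. In replicate 2 the 36 UMIs were in 7 nuclei, with 18 in 1 nucleus and 32 in 3. edgeR called it in PS19 against WT (adjusted p = 5.88e-07) and in TG_PS19 against PS19 (0.000377), but with relative log expression scaling these were 0.132 and 0.199. DESeq2 gave 1 for the first and none for the second. These calls rest on 1 library: without PS19 replicate 2 the class held 1 Ccl2 UMI in PS19 and 1 in TG_PS19. Replicate 2 also had 12 Ccl2 UMIs in 1 dentate granule nucleus.

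The dissociation-response list in astrocytes summed to 203 CPM in WT, 343 and 309 in PS19 and 114 in TG_PS19, in the same order as Cxcl10, with 1 or 2 of the 20 at 0. T cell markers in astrocytes were at 10.9 to 16.6 CPM with no order by group. The part of dissociation in the astrocyte results was not tested. In astrocytes, 5 members were tested, of which 2 were called higher in PS19 against WT (background 3.17%), and 2 lower and 1 higher in TG_PS19 against PS19 (3.68% and 4.98%).

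Ccl5, a chemokine typical of activated T cells, was tested in 3 classes (astrocytes, dentate granule neurons and oligodendrocytes) and called in none of them. Of its 9 tests 1 had an unadjusted edgeR p under 0.05, in oligodendrocytes for TG_PS19 against PS19 (log2 fold change −2.17 ± 0.90, edgeR adjusted p = 0.114). Ccl5 gave 92, 45, 50 and 77 UMIs in WT, PS19 replicates 1 and 2 and TG_PS19, or 2.26, 2.39, 2.03 and 2.27 CPM over all kept nuclei. The highest level was in the few T cell-like nuclei, with 8 UMIs in 16 nuclei and 8 in 14 nuclei of PS19 (231 and 222 CPM), 1 UMI in 2 WT nuclei and 2 in 5 TG_PS19 nuclei. Neurons had 1.44 to 2.53 CPM, astrocytes 1.52 to 3.36 and oligodendrocytes 0.451 to 2.48, a level alike enough across classes that it was not read as expression. Cxcl9 had 0 UMIs in all 4 libraries, which on 3 counts allows up to 0.0738 CPM in WT, 0.159 and 0.122 in PS19 and 0.0886 in TG_PS19 over all kept nuclei.

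Cx3cl1, the fractalkine ligand, was highest in the neuronal classes by its mean over libraries. Its mean level over libraries was 76.5 CPM in other excitatory neurons (62.3 to 97.3 across libraries), 62.9 in dentate granule (45.9 to 73.0), 60.8 in CA1 pyramidal (56.3 to 65.2), 52.8 in Cajal-Retzius (34.4 to 75.2) and 44.6 in inhibitory neurons (23.8 to 63.2). Neighbours in this order overlapped. Below the neurons by mean came fibroblasts at 27.9 CPM and endothelial cells at 24.0, then oligodendrocyte precursors at 12.3. Astrocytes, mural cells, microglia and oligodendrocytes were at 3.21 to 5.24. In PS19 replicate 2, however, inhibitory neurons (23.8 CPM) lay below endothelial cells (35.0 CPM). Its likest genes were Syt7 (r = 0.91), Erc2 (0.88) and Arhgap44 (0.87), of which the first 2 encode a synaptotagmin and an active-zone scaffold.

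Cx3cl1 was tested in 10 classes and was not called by edgeR in any of them with the settings used here, although dentate granule neurons gave calls under other settings. Of its 30 tests over the 3 comparisons, 6 had an unadjusted edgeR p under 0.05, and DESeq2 called none. Dentate granule neurons had 816 UMIs in WT, 287 and 393 in PS19 and 378 in TG_PS19, or 73.0, 66.1, 66.4 and 45.9 CPM. TG_PS19 was the lowest of the 4, and the PS19 pair differed by less than counting error. The log2 fold change was −0.44 ± 0.11 in TG_PS19 against PS19 (edgeR adjusted p = 0.122) and −0.55 ± 0.12 in TG_PS19 against WT (0.142). Dentate granule neurons were the class fitted with a finite prior (5.91 degrees of freedom), and with the robust prior these adjusted p were 0.0102 and 0.00172. The first was called in 6 and the second in 7 of 11 alternative analyses, with adjusted p from 0.00193 to 0.626 and from 0.000198 to 0.557, the highest being DESeq2's. Among the male-called TG_PS19 nuclei alone the log2 fold changes were −0.79 and −0.91. In PS19 against WT the log2 fold change was −0.12 ± 0.10 (edgeR adjusted p = 0.725).

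In CA1 pyramidal neurons Cx3cl1 was at 65.2 CPM in WT, 64.5 and 56.3 in PS19 and 57.1 in TG_PS19, with a log2 fold change of 0.04 ± 0.19 in TG_PS19 against PS19. Inhibitory neurons had 63.2, 55.7, 23.8 and 35.8 CPM. There PS19 replicate 1 lay beside WT and replicate 2 below TG_PS19, and the log2 fold change in PS19 against WT of −0.79 ± 0.32 (edgeR adjusted p = 0.473) became −0.19 without replicate 2. The microglial class had 12 Cx3cl1 UMIs in WT and at most 3 in another library.

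**Figure D4:**
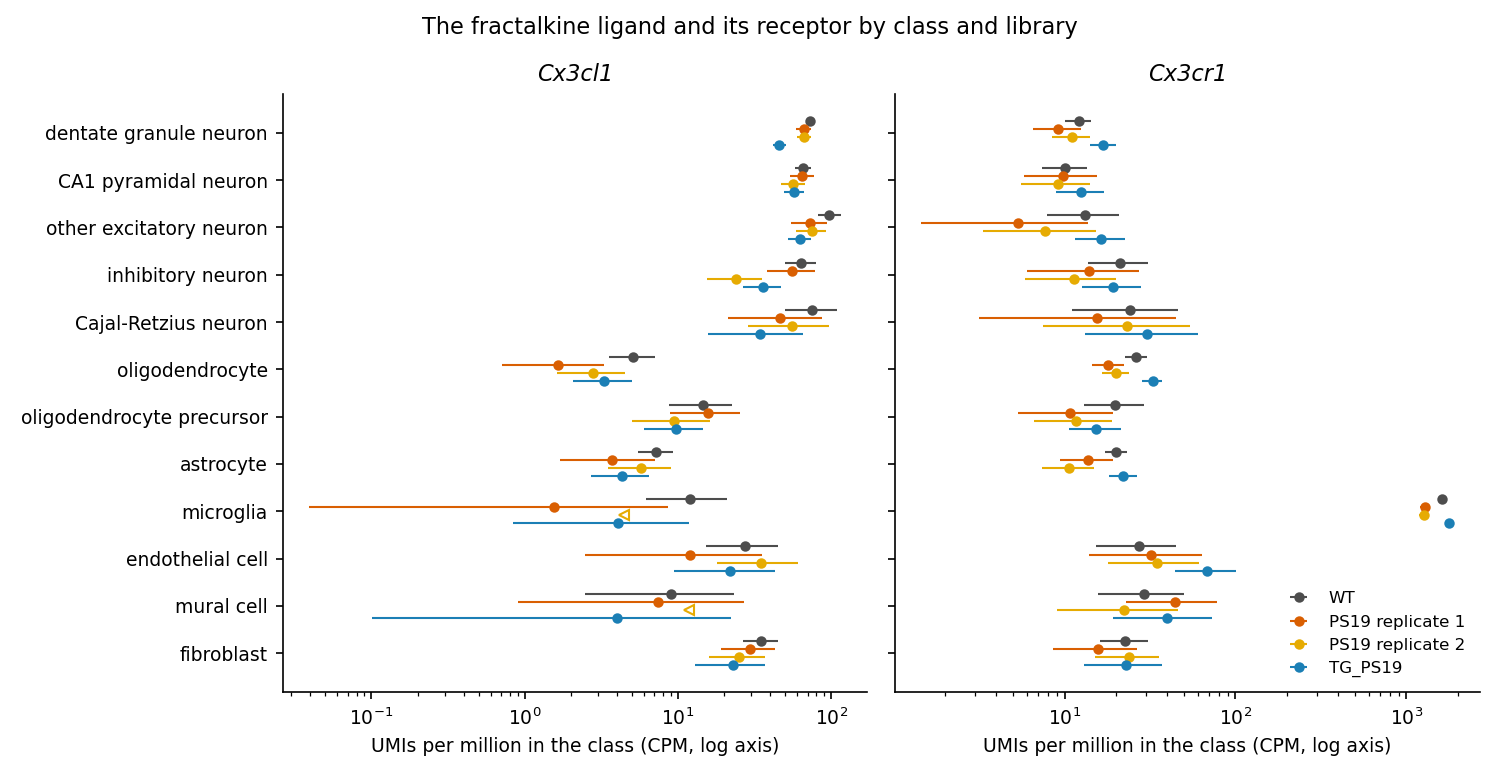
Levels of Cx3cl1 (left) and Cx3cr1 (right) in 12 classes on a log axis in CPM, 1 point per library with its exact 95% Poisson interval; open triangles stand at the upper bound where no UMI was found. By its mean over libraries Cx3cl1 is highest in the 5 neuronal classes. In PS19 replicate 2 inhibitory neurons (23.8 CPM) lie below endothelial cells (35.0 CPM). Cx3cr1 is at 1263 to 1777 CPM in microglia and at most 68.0 CPM in every other class shown.

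Cx3cr1, the fractalkine receptor, marked microglia in every library. It gave 1623 UMIs in WT, 828 and 1047 in PS19 and 1318 in TG_PS19 microglia, found in 88.6%, 88.4%, 91.8% and 91.4% of nuclei. The levels were 1613 CPM (1535 to 1693) in WT, 1283 (1197 to 1374) and 1263 (1188 to 1342) in the PS19 pair and 1777 (1682 to 1876) in TG_PS19. The PS19 libraries lay below both others and differed from each other by less than counting error. Cx3cr1 rose in TG_PS19 against PS19, with a log2 fold change of 0.57 ± 0.14 (edgeR adjusted p = 0.000836, DESeq2 0.134). In PS19 against WT the log2 fold change was −0.34 ± 0.13 (edgeR adjusted p = 0.102) and in TG_PS19 against WT 0.22 ± 0.16 (0.780).

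The Cx3cr1 values depended on the nuclei kept. With the nuclei marked as doublets kept, the log2 fold change was 0.24 in TG_PS19 against PS19 (edgeR adjusted p = 0.503) and 0.01 in PS19 against WT. Within the cluster low in disease-associated genes it was at 1644, 1839, 1766 and 1837 CPM in WT, PS19 replicates 1 and 2 and TG_PS19, and within the cluster high in them at 1319, 1193, 1159 and 1119 CPM. In each of these clusters the PS19 libraries overlapped with TG_PS19. The homeostatic microglial list of 10 genes summed to 10794, 7597, 6603 and 9352 CPM, lower in PS19 as Cx3cr1 was. Among the 3 genes most like Cx3cr1 were the microglial lysosomal protease gene Ctss (r = 0.95) and Gm23629 (0.94).

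In the other tested classes Cx3cr1 was at most 68.0 CPM. Neurons, which should lack it, had 12.5 CPM in WT, 9.47 and 10.6 in PS19 and 16.3 in TG_PS19, with median depths of 6457 to 10151 UMIs in dentate granule neurons against 2893.5 to 4505 in astrocytes. Astrocytes had 20.1, 13.7, 10.6 and 22.03 CPM, and oligodendrocytes 26.1, 18.05, 19.995 and 32.8. edgeR called both higher in TG_PS19 against PS19 (log2 fold changes 1.05 ± 0.26 and 0.84 ± 0.18, adjusted p = 0.00191 and 0.000112; in oligodendrocytes 5.89% of genes were called higher), and DESeq2 neither (0.676 and 0.397). Dentate granule neurons had a log2 fold change of 0.82 ± 0.21 in this comparison, not called (edgeR adjusted p = 0.117) but called in 6 of 10 alternative analyses. The part of free microglial RNA in the levels outside microglia was not tested. The GENCODE M21 model of Cx3cr1 (GRCm38, chr9:119901616-120069879, minus strand, 168264 bases) overlaps other genes on both strands, Gorasp1 and Csrnp1 among them on its own strand, and the sources used here do not give how introns and strand were counted. In choroid plexus epithelium-like nuclei, present in 3 libraries, Cx3cr1 stood at 263 and 349 CPM in PS19 (23 and 24 nuclei) and 463 in TG_PS19 (39 nuclei), and in ependymal-like nuclei of the same libraries at 206, 70.8 and 103 CPM (26, 12 and 17 nuclei).

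**Figure D5:**
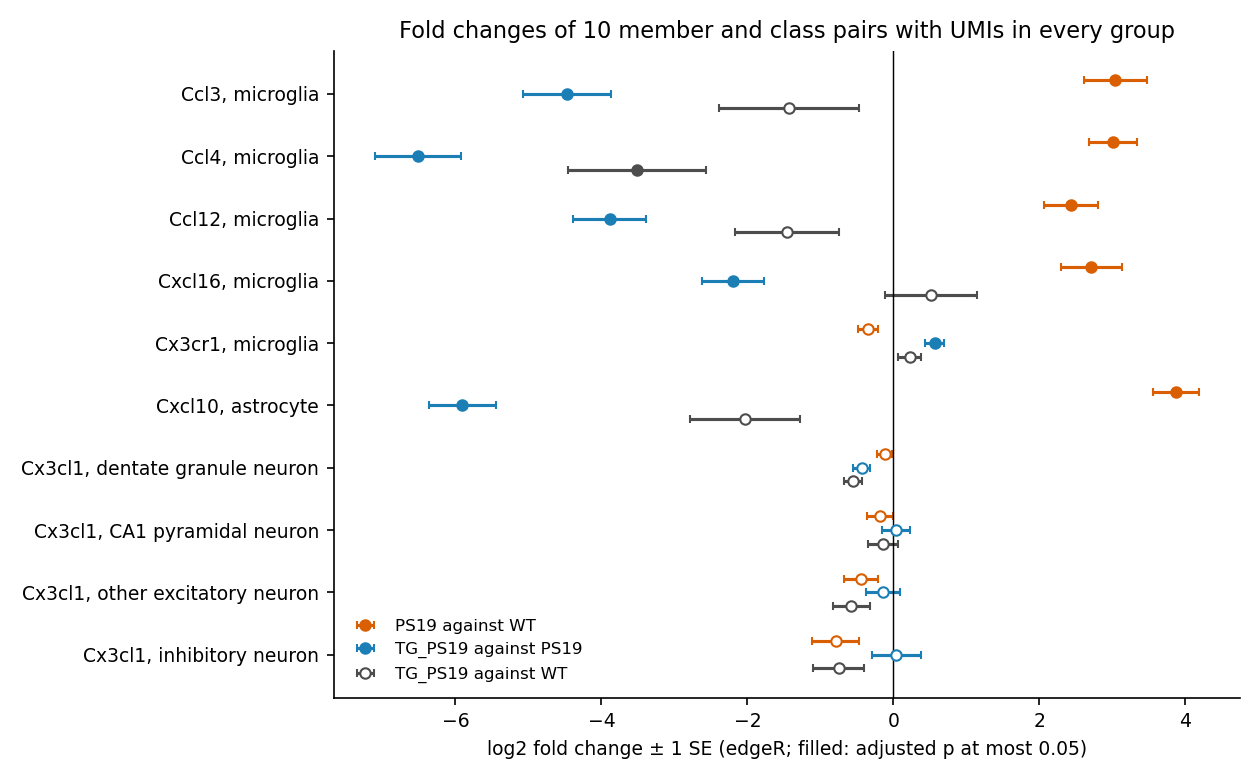
log2 fold changes ± 1 SE (edgeR) of 10 chosen pairs of a member and a class with UMIs in each group, for the 3 comparisons; filled points have an adjusted p of at most 0.05. The microglial chemokines and astrocytic Cxcl10 are at 2.43 to 3.87 in PS19 against WT and at −2.20 to −6.52 in TG_PS19 against PS19, while Cx3cl1 in the 4 neuronal classes drawn lies within −0.79 to 0.04. In Cajal-Retzius neurons, which are not drawn, Cx3cl1 was at −1.07 ± 0.61 in TG_PS19 against WT. It was at −0.54 there in each of the other comparisons, without a call. Points for Ccl3, Ccl4 and Cxcl10 against TG_PS19 rest on 1 to 3 UMIs there.

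Of 22 other chemokine receptors, 14 were tested in at least 1 class (65 pairs). In PS19 against WT 0 pairs were called higher and 2 lower. The counts were 6 higher and 1 lower in TG_PS19 against PS19, and 2 higher and 1 lower in TG_PS19 against WT. In this order of comparisons 3.08%, 10.8% and 4.62% of the pairs were called, against 2.54%, 4.14% and 1.57% of all gene and class pairs. Ccr6 in microglia fell by 0.62 in PS19 against WT (SE 0.21, adjusted p = 0.0344), at 159 CPM in WT, 113 and 95.3 in the PS19 pair and 147 in TG_PS19. Cxcr6, the Cxcl16 receptor, was at 11.9, 24.8, 20.5 and 43.1 CPM in the same order and was called higher in TG_PS19 against WT (log2 fold change 1.92 ± 0.51, adjusted p = 0.0232). Ccr2 was at 28.8, 24.8, 19.3 and 25.6 CPM without a call, and Cxcr3, the Cxcl9 and Cxcl10 receptor, had 1 UMI in microglia of all 4 libraries.

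Of 28 other chemokines, 12 were tested (52 pairs). In both PS19 against WT and TG_PS19 against PS19, 1 pair was called higher and 1 lower, and 1 was higher in TG_PS19 against WT. These are 3.85%, 3.85% and 1.92% of the pairs, near the 2.54%, 4.14% and 1.57% of all gene and class pairs. Cxcl5, a neutrophil-attracting chemokine, was at 2.63 CPM in WT, 15.3 and 19.1 in PS19 and 3.92 in TG_PS19 astrocytes. Its log2 fold change was 2.70 ± 0.36 in PS19 against WT (edgeR adjusted p = 1.16e-11) and −1.98 ± 0.37 in TG_PS19 against PS19 (4.29e-06). Cxcl14 in oligodendrocytes moved in the other direction, at 11.6, 5.81, 2.81 and 8.42 CPM (log2 fold changes −1.44 ± 0.32 and 1.07 ± 0.34, adjusted p = 0.00027 and 0.0217). Cxcl17 in oligodendrocytes was called higher in TG_PS19 against WT (0.74 ± 0.19, adjusted p = 0.00916).

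The shedding proteases Adam10 and Adam17 were tested in all 12 classes. None of the 24 pairs was called in any comparison by edgeR or DESeq2, beside edgeR shares of 2.54%, 4.14% and 1.57% of all pairs. An unadjusted edgeR p under 0.05 was seen in 2 of the 72 tests over the 3 comparisons. In microglia Adam10 was at 368 CPM in WT, 353 and 389 in PS19 and 388 in TG_PS19, and Adam17 at 199, 257, 228 and 194 CPM.

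Of 23 inducers and regulators of chemokine transcription, all were tested in at least 1 class (145 pairs). In PS19 against WT, 8 pairs were called higher and 1 lower, and in TG_PS19 against PS19 1 higher and 18 lower. In TG_PS19 against WT the counts were 0 higher and 1 lower. These are 6.21%, 13.1% and 0.690% of the pairs, against 2.54%, 4.14% and 1.57% of all gene and class pairs. Nfkbia, the NF-κB inhibitor that NF-κB itself induces, was at 26.9 CPM in WT, 69.2 and 61.0 in PS19 and 23.5 in TG_PS19 astrocytes (log2 fold changes 1.25 ± 0.18 and −1.29 ± 0.19, edgeR adjusted p = 5.68e-10 and 3.79e-09). Microglial Stat2, a transducer of type I interferon signals, was at 27.8, 77.5, 86.9 and 37.8 CPM and rose in PS19 against WT (1.56 ± 0.33, adjusted p = 7.17e-05). Irf7 in microglia had 0 UMIs in WT, 10 and 22 in PS19 and 3 in TG_PS19, and was called in PS19 against WT (edgeR adjusted p = 0.000645). DESeq2 gave no adjusted p for Irf7 there. Irf7 could pass the filter on low counts in microglia through PS19 alone, so this edgeR p-value adds nothing to the UMI counts. Its place among the 8 pairs called higher is a description. The NF-κB subunit gene Relb and the regulator Nfkbiz fell in TG_PS19 against PS19 microglia by 1.74 and 1.94 log2 units (SE 0.36 and 0.41, adjusted p = 5.78e-05 and 8.54e-05), at 113 and 62.7 against 24.3 CPM and at 76.0 and 57.9 against 16.2 CPM. Tnfrsf1a, a TNF receptor, was lower in TG_PS19 astrocytes (4.29 CPM) than in PS19 (18.6 and 13.4) and WT (11.6), and was called in both comparisons (adjusted p = 8.49e-05 and 0.0326). Ifngr1, an interferon gamma receptor subunit, went the other way in microglia and fell by 0.66 in PS19 against WT (SE 0.17, adjusted p = 0.00329). Over these 4 lists DESeq2 called 2, 1 and 0 pairs in the 3 comparisons, namely astrocytic Cxcl5 (adjusted p = 0.0226) and Nfkbia (0.0364) in the PS19 pair against WT and Nfkbia (0.0159) in TG_PS19 against PS19.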

How the data were processed

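The authors ran Cell Ranger 7.1.0 with GRCm38, per the submitters' processing notes and the file headers; the deposited values are raw UMI counts per gene and nucleus from the 10x 3′ v3.1 kit. How introns, strand and shared reads were treated is not given in the sources used here. The gene models of Cxcl10, Cxcl16 and Ccl2 overlap Art3, Zmynd15 and Gm17268 on the opposite strand (1226, 107 and 124 UMIs over all libraries). The part of these overlaps in the levels was not tested. Nuclei with at least 500 UMIs, 300 genes and at most 5% mitochondrial UMIs were kept, called doublets (3.70 to 10.2% of barcodes, by simulated doublets) were removed, and nuclei were clustered jointly (2000 variable genes, 30 components, Leiden resolution 1) and named from marker lists. Counts were summed per class and library and fitted over all genes with edgeR 4.0.16 (quasi-likelihood test, TMM scaling, Benjamini-Hochberg adjustment per class), all 4 libraries in 1 fit without covariates; DESeq2 1.42.0 was an alternative. The PS19 libraries differed by 1.61 to 2.93 times sampling noise (chi-square per degree of freedom) and counted as 2 samples. Named outside the members were called genes (at most the 5 smallest adjusted p per list and comparison), receptors, ligands or sheddases of a member, and the 3 genes most like each member. The members and lists were chosen with earlier results of these data known. On simulated microglial counts the fit recovered 91% and 97% of genes changed by 2 and 3 log2 units in PS19 against WT. The ISRE and κB motifs were searched in shortened forms, adopted after a first search with longer forms had been seen. Values of some genes that the naming rule takes in are not reported here.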

Additional observations from a re-analysis of the deposited data

How the results depend on the processing

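No paired analysis was possible because WT and TG_PS19 have 1 library each and share fewer than 2 replicate numbers with PS19. The number of member and class pairs called moved past 1.5 times with DESeq2 (2, 3 and 0 pairs in PS19 against WT, TG_PS19 against PS19 and TG_PS19 against WT, from 7, 10 and 1). For TG_PS19 against WT it was also 2 with relative log expression scaling, library totals or a robust prior and 0 with the Xist-called TG_PS19 nuclei alone. Of the 18 called results, 7 kept their call under every alternative that gave an adjusted p, and none changed sign. Over all results and alternatives 170 of 192 kept the call and 22 lost it, 9 of them under DESeq2. Microglial Cx3cr1 in PS19 against WT, not called, changed sign with doublets kept (log2 fold change 0.00611). Of results not called, Cx3cl1 in dentate granule neurons was called lower in 6 (TG_PS19 against PS19) and 7 (TG_PS19 against WT) of 11 alternatives, and Cx3cr1 there higher in 6 of 10 (TG_PS19 against PS19). The count for other pathway genes was 13, 28 and 5 pairs, against 2, 1 and 0 with DESeq2. It was 11 in TG_PS19 against PS19 and 3 in TG_PS19 against WT with the Y-called TG_PS19 nuclei alone. For TG_PS19 against WT it was 8 with library totals, a robust prior or doublets kept. Leaving out a PS19 library gave values with no test: astrocytic Ccl2 in TG_PS19 against PS19 had fitted log2 fold changes of −5.57 and −0.89 without replicate 1 and 2, and Cxcl16 in microglia 2.19 and 3.15 in PS19 against WT. With library totals the median over genes moved in TG_PS19 against PS19 by −0.17 on the log2 scale in astrocytes and the share of calls that are higher went from 64.7% to 45.2% over all classes (68.9% to 44.8% in TG_PS19 against WT). The adjusted residual degrees of freedom and leaving out the nucleus with most UMIs of each member are settings chosen after seeing the data. Depth limits the members with 0 to 4 UMIs in a group (Ccl2, Ccl3, Ccl4, Ccl12 and Cxcl10 in TG_PS19), whose size of change is known only within wide intervals or as a ratio to 3 counts.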
